A study of Arabidopsis thaliana with 4 samples.

Results

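After osmotic stress, transcripts of 6 ABA-responsive genes were compared between mutant and wild-type seedlings, out of 13355 genes to which single probe sets of the 22746 on the array are assigned: AT3G48510, AT5G50360, AT1G16850, AT5G66780, AT2G21820 and HIS1-3 (AT2G18050), the linker histone gene induced by drought. They were chosen as markers of the response to abscisic acid (ABA) that belong to neither the LEA_4 proteins nor the dehydrins. Each gene has 1 probe set that the platform's probe table gives to it alone, so no choice among probe sets was needed. The RNA came from whole seedlings, 16 days old and kept for 6 h on a 40% polyethylene glycol (PEG) solution, which withdraws water from the tissue. The mutant ced1 was measured on 2 arrays and wild type (WT) on 2 arrays, both in the gl1-Col0 background, so the gl1 background is common to mutant and control. As the study of the mutant describes it, ced1 carries a lesion in BODYGUARD, a gene of the cuticle, and induces the ABA synthesis gene NCED3 only weakly under osmotic stress. All 4 arrays are of PEG-treated seedlings, so the values are levels after treatment and not responses to it. In whole seedlings, fewer cells of a type cannot be told apart from less RNA per cell.

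ABA is the hormone that plants make when water is short. It binds receptors that block PP2C phosphatases, which frees SnRK2 kinases to activate bZIP transcription factors, and these switch on genes whose promoters carry ABA-responsive elements. Transcripts of such genes serve as markers of the ABA response in seedlings and are also common in maturing seeds. HIS1-3 codes for a small linker histone, a protein that binds nucleosomes and the DNA between them. In Arabidopsis it is known as the stress-inducible form, while the main linker histones are made throughout the plant.

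After PEG, all 6 marker genes were lower in ced1 than in WT (limma, Benjamini-Hochberg adjusted p between 8.12e-05 and 0.00188 over all probe sets tested). Lower calls made up 19.2% of the 13648 tested probe sets. The median log2 difference (ced1 minus WT) was -2.93 for the 6 genes, against 0.07 for all tested probe sets. A decrease of 4-fold or more was seen in 5 of the 6 genes, and 1.16% of tested probe sets were called with a decrease of that size. HIS1-3 was the exception and was 3.39-fold lower. Of the 6 genes, 5 had all 4 signals above the level of the low-signal filter, a signal of about 102.7. AT2G21820 had both ced1 signals under that level and passed the filter through its WT signals, so neither its call nor the size of its decrease supports these counts. Without it, 5 of 5 genes were lower, 4 of them by 4-fold or more, and the median was -2.93. The markers were chosen with earlier results of these data known. These counts and medians therefore describe the chosen genes and are no test of ABA markers at large.

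AT3G48510 and AT5G50360 stand together on a list, drawn up from general knowledge, of a family of 6 genes for ABA-induced transcriptional repressors (the AITR family). The other 4 genes of that list have no probe set named here. AT3G48510 had signals of 201.5 and 186 on the ced1 arrays, against 1867.5 and 1929.5 on the WT arrays. The arrays of each genotype lay close together and the genotypes were far apart. Its log2 difference was -3.19 ± 0.15 (SE, n = 2 arrays per genotype), with a 95% interval of -3.53 to -2.85 (limma adjusted p = 8.12e-05). On this scale, with 16 added to each signal, the level was 9.13-fold lower in ced1, and the ratio of mean signals was 9.80. Of all probe sets tested, 16 others had a larger decrease.

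AT5G50360 had signals of 447.2 and 521.2 on the ced1 arrays, against 2929.2 and 4150.5 on the WT arrays. The WT arrays differed more than those of AT3G48510, and WT array 2 was the higher one. The genotypes did not overlap, which was so, with ced1 below WT, for 33.6% of all tested probe sets. The log2 difference was -2.81 ± 0.19 (SE, n = 2 each; limma adjusted p = 0.000189). The interval of -3.27 to -2.35 overlapped that of AT3G48510.

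AT1G16850, AT5G66780 and AT2G21820 have no symbol beyond their locus name in the gene table used. AT1G16850 had signals of 471.2 and 443.3 on the ced1 arrays, against 4525 and 2892.4 on the WT arrays. Here WT array 1 was the higher one, opposite to AT5G50360. Its log2 difference was -2.94 ± 0.22 (SE, n = 2 each; limma adjusted p = 0.00021). AT5G66780 had signals of 183.9 and 207.8 on the ced1 arrays, against 1552.5 and 1636.2 on the WT arrays. As for AT3G48510, both genotypes had a narrow spread. The log2 difference was -2.93 ± 0.15 (SE, n = 2 each; limma adjusted p = 9.58e-05).

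AT2G21820 had signals of 93.5 and 100.2 on the ced1 arrays, against 995.8 and 762.5 on the WT arrays. Both ced1 signals are low for this array type, and detection calls were not used here, so the ced1 level cannot be told from background. Its log2 difference was -2.98 ± 0.19 (SE, n = 2 each; limma adjusted p = 0.000152). Since 16 is added to each signal before the logarithm, the size depends on that offset: it was -3.16 with an offset of 1 and -2.54 with an offset of 64.

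HIS1-3 had signals of 230.4 and 201.8 on the ced1 arrays, against 992.9 and 594.6 on the WT arrays. The WT arrays lay farther apart than for any other of the 6 genes, by 0.72 on the log2 scale. Both WT signals still exceeded both ced1 signals. The log2 difference was -1.76 ± 0.25 (SE, n = 2 each; limma adjusted p = 0.00188), with a 95% interval of -2.35 to -1.18. It was -1.40 without WT array 1 and -2.12 without WT array 2, and passed the test in both cases.

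**Figure D1:**
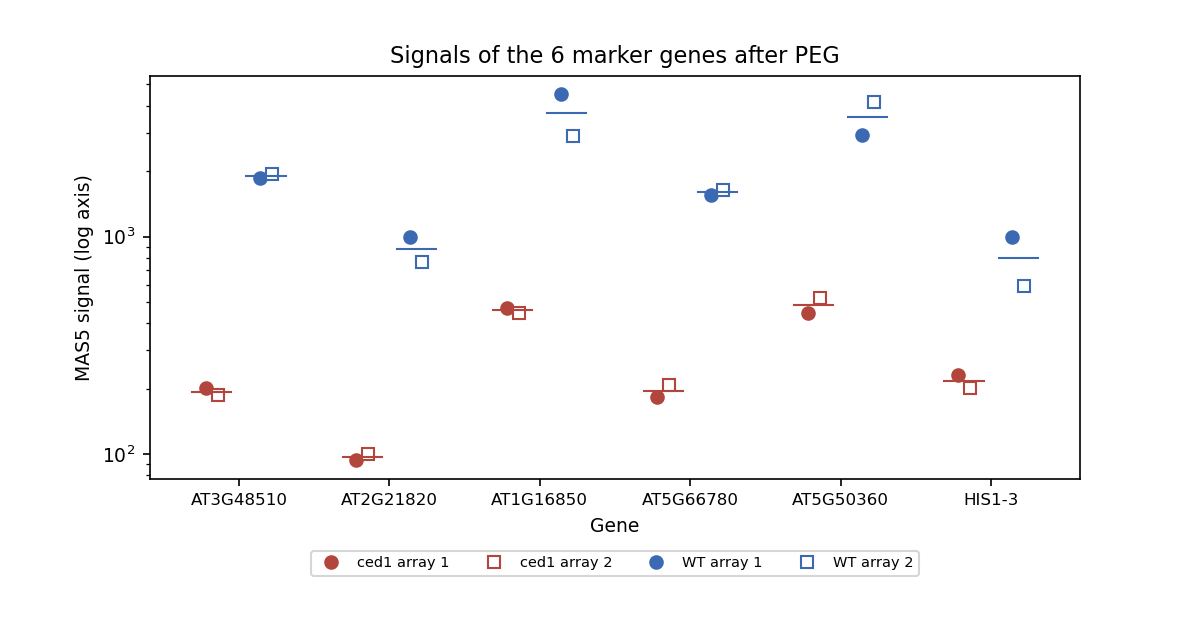
MAS5 signal (log axis) of each of the 6 marker genes, with ced1 left of WT; filled circles are array 1, open squares array 2 and short lines the mean of 2 arrays. For every gene both ced1 signals lie below both WT signals; the WT arrays lie close for AT3G48510 and AT5G66780 and far apart for HIS1-3.

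Ordered by the size of the difference, AT3G48510 came first, followed by AT2G21820, AT1G16850, AT5G66780, AT5G50360 and HIS1-3. Neighbours among the first 5 differed by 0.01 to 0.22 on the log2 scale, and their 95% intervals overlapped, so no order can be read among these 5. The step between AT5G50360 and HIS1-3 was 1.05, and their intervals did not overlap. The smallest decrease of AT5G50360 over any pair of a ced1 and a WT array was -2.45, and the largest decrease of HIS1-3 over any such pair was -2.21. Whether HIS1-3 changed less than the others was not tested.

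Among the 6 genes, the WT arrays lay farther apart than the ced1 arrays for all but AT3G48510 and AT5G66780. For AT3G48510 and AT5G66780 the ced1 gaps (ced1 array 1 minus ced1 array 2) were 0.11 and -0.16. Over the 6 genes, the absolute gap between replicate arrays had a median of 0.13 on the log2 scale between the ced1 arrays and of 0.44 between the WT arrays. Over all tested probe sets these medians were 0.12 and 0.24. The WT gaps did not run one way: AT1G16850, AT2G21820 and HIS1-3 were higher on WT array 1, by 0.64, 0.38 and 0.72. AT5G50360, AT5G66780 and AT3G48510 were higher on WT array 2, and their gaps (WT array 1 minus WT array 2) were -0.50, -0.08 and -0.05. The average of the 6 profiles, each centred on its own mean, was -1.39 and -1.38 on the ced1 arrays, against 1.48 and 1.29 on the WT arrays. AT2G21820 and AT5G66780 lay closest to this average, at a root mean square distance of 0.13 each over 4 arrays, and HIS1-3 lay farthest, at 0.54.

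Within all tested differences, AT3G48510, AT5G50360, AT1G16850 and AT5G66780 stood near the low end. Between 0.117% and 0.271% of tested probe sets had a larger decrease than each of these 4 genes, and 1.91% had a larger one than HIS1-3. AT2G21820 is given no such place, because its ced1 signals lay under the filter's level. The places given are those of genes chosen with earlier results of these data known.

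**Figure D2:**
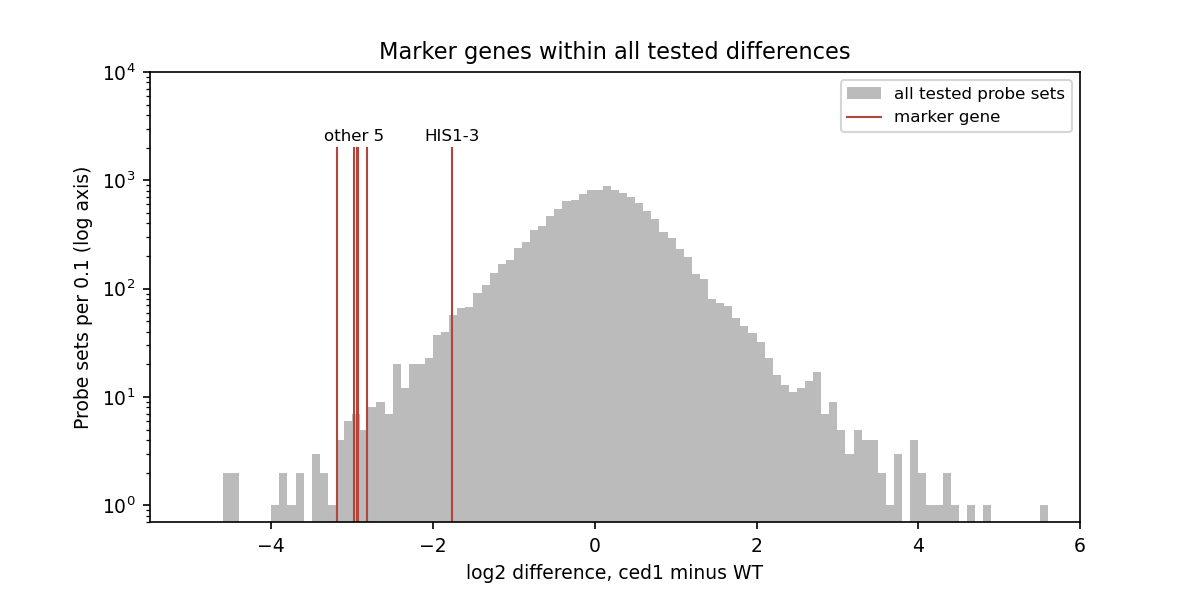
Histogram of the log2 difference (ced1 minus WT) over all 13648 tested probe sets (number of probe sets per 0.1, log axis), with a vertical line for each marker gene. HIS1-3 lies at -1.76 and the other 5 between -3.19 and -2.81, in the sparse lower tail; the place of AT2G21820 depends on the offset.

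Genes with a linker histone-type domain, on the list fixed for this comparison, did not all move as HIS1-3 did. Of its 10 genes with a linker histone-type domain, 5 have a named probe set and were tested: HIS1-3 was lower, 3 were higher and 1 did not pass. Higher calls made up 23.2% of tested probe sets. AT2G30620 had signals of 2740.5 and 2945.2 on the ced1 arrays, against 1565.7 and 1284.4 on the WT arrays, a log2 difference of 0.99 ± 0.15 (SE; limma adjusted p = 0.00231). AT1G06760 had signals of 2879.6 and 2680.7 on the ced1 arrays, against 1518.5 and 1291.3 on the WT arrays, a difference of 0.98 ± 0.14 (SE; limma adjusted p = 0.00207). Both differences were positive, opposite in sign to that of HIS1-3. HON4 was higher by 0.88 ± 0.17 (SE; limma adjusted p = 0.00659) and did not pass without ced1 array 2. The gene that did not pass, AT1G72740, named after its value was seen, differed by -0.26 ± 0.16. All 4 of these genes kept the sign of their difference under quantile normalization and equal array medians.

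The upstream ABA pathway was scarcely measured by named probe sets. Of 67 genes for ABA synthesis and breakdown, receptors, PP2C phosphatases, SnRK2 kinases, transcription factors and modulators, 5 have a probe set named here, and all 5 were tested. Of these, 3 were lower, none was higher and 2 did not pass, while 19.2% of all tested probe sets were called lower. The receptors, phosphatases and kinases have no named probe set, so the markers cannot be set beside them. PUB19, a U-box ubiquitin ligase gene, was lower by -1.68 ± 0.12 on the log2 scale, and XERICO, a RING-type gene that raises ABA levels when overexpressed, by -1.45 ± 0.15. UGT71B6, which codes for a glucosyltransferase that conjugates ABA, was lower by -1.70 ± 0.28. The ced1 signals of UGT71B6, 58.5 and 47.6, lay under the filter's level, and it passed the filter through its WT signals. Its call therefore does not support the count of lower genes. Its size depends on the offset, at -1.96 with an offset of 1 and -1.22 with an offset of 64. UGT71C5, another glucosyltransferase gene, differed by 0.24 ± 0.16. EEL, a bZIP factor gene of seeds, differed by -0.67 ± 0.29 and passed only with quantile normalization, with equal array medians or without WT array 1.

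Other ABA- and dehydration-induced genes were examined for the range in which the markers lie. Of 16 LEA genes with a named probe set, 10 were tested and 6 were not. All 10 were lower, with a median log2 difference of -3.14, and 19.2% of all tested probe sets were called lower. AT4G21020 and AT4G36600 had both ced1 signals under the filter's level and passed it through their WT signals. AT2G42560 had ced1 signals of 92.9 and 112.6, on either side of that level, and likewise passed through its WT signals of 3164.9 and 2081.8. The calls and sizes of these genes do not support the count or the median. The largest LEA decrease, that of AT4G21020, was -4.53 with an offset of 16 and -3.14 with an offset of 64, since its ced1 signals of 15.2 and 6.1 lay far under the filter's level. LEA18, AT3G53040 and AT2G42560 differed by -3.21, -3.99 and -4.45. Among 5 tested dehydrin genes, 4 were lower and 1 did not pass, and the median of the 5 was -1.39. The lower dehydrin gene AT2G21490 had ced1 signals of 86.6 and 36.4. It likewise passed the filter through its WT signals, so its call does not support this count. Of a further 3 tested effector genes 2 were lower (COR15A and COR15B, chloroplast proteins of cold and drought) and HVA22C was higher, at 1.04 ± 0.15 (SE). The median of all tested probe sets was 0.07, as above. Whether the markers differ from these lists was not tested.

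**Figure D3:**
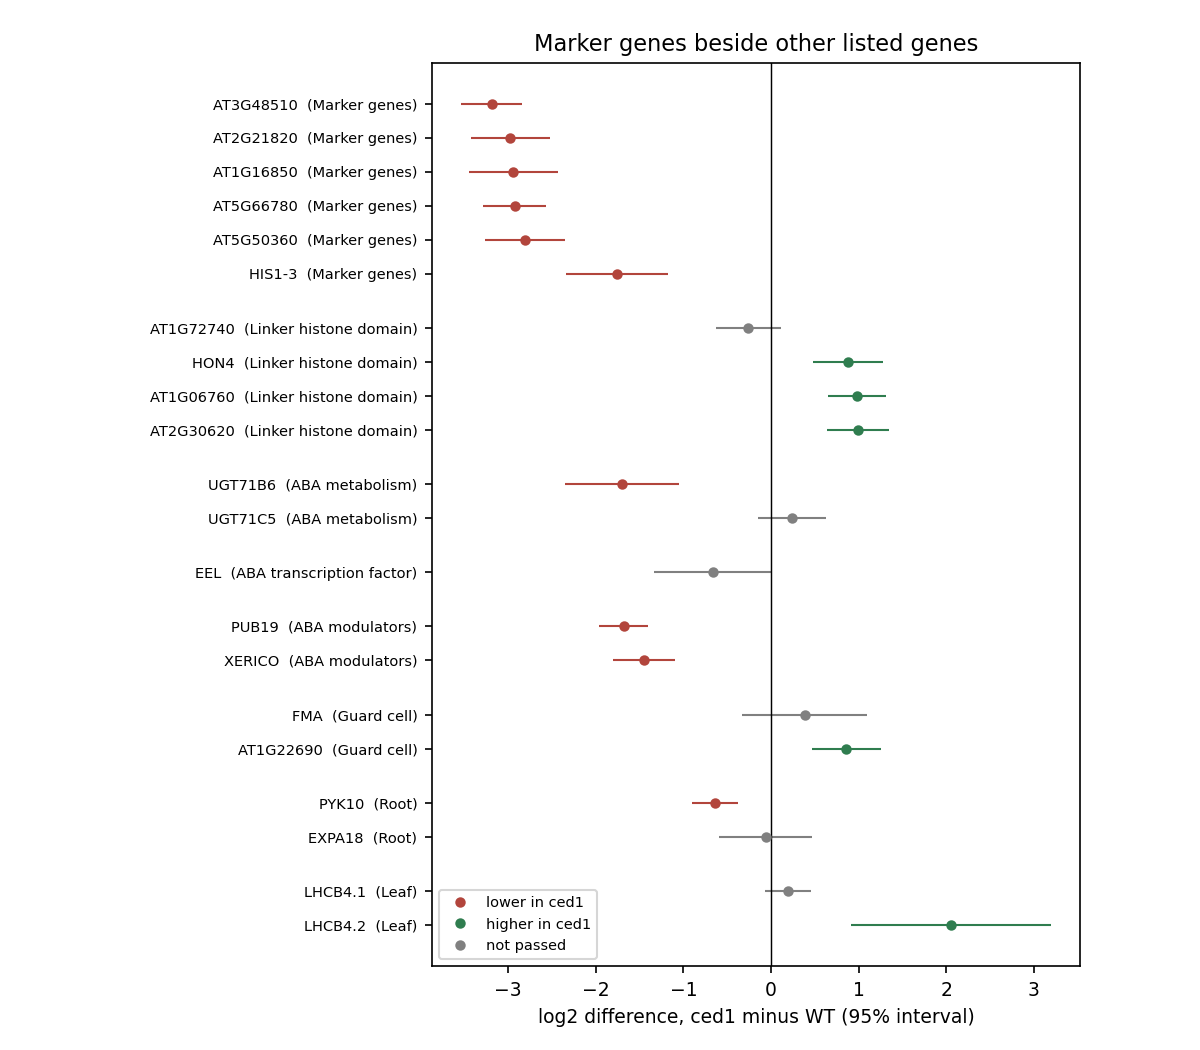
Log2 difference (ced1 minus WT) with its 95% interval for the 6 marker genes and for tested genes of the lists of linker histone-domain, ABA metabolism, ABA transcription factor, ABA modulator, guard cell, root and leaf genes; the LEA, dehydrin and other effector genes, some with larger decreases, are not drawn. Red is lower in ced1, green higher and grey not passed. The interval of HIS1-3 overlaps those of UGT71B6, PUB19 and XERICO, and the other linker histone-domain genes lie near or above 0. The places of UGT71B6 and AT2G21820, whose ced1 signals lie under the filter's level, depend on the offset.

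Markers of cell types were read beside these values, since HIS1-3 is known to be made in guard cells without stress. Of 6 guard cell markers, 2 have a named probe set, and neither was lower. AT1G22690 had signals of 1363.8 and 1350.3 on the ced1 arrays, against 842 and 648.8 on the WT arrays, a log2 difference of 0.86 ± 0.17 (SE; limma adjusted p = 0.00632) whose call was lost when either ced1 array was left out. FMA, a regulator of guard cell fate, differed by 0.38 ± 0.30 and passed only without WT array 1, at 0.79; without WT array 2 it was -0.02. The summed signal of the 2 genes, most of it from AT1G22690, was 1555.2 and 1505.7 on the ced1 arrays, against 1017.7 and 741.7 on the WT arrays. Of 12 seed storage and oil body genes, 1 has a named probe set: OLEO3 had signals of 64.6 and 77.6 on the ced1 arrays, against 71.3 and 82.6 on the WT arrays, under the filter's level and with overlapping genotypes. Of 5 root markers, 3 have a named probe set, with summed signals of 6535.7 and 6064.4 on the ced1 arrays, against 9787.6 and 9693.5 on the WT arrays. Nearly all of this sum was PYK10, at 6310 and 5868.6 on the ced1 arrays, against 9611.5 and 9388.9 on the WT arrays. EXPA7, at 78.9 and 51.7 against 46.3 and 126.5, had overlapping genotypes and was not tested. PYK10, a root myrosinase gene, was lower by -0.64 ± 0.11, a call lost without ced1 array 2, and EXPA18 differed by -0.06 ± 0.23. Of 5 leaf photosynthesis markers, 2 have a named probe set, with summed signals of 39170.1 and 39486.1 on the ced1 arrays, against 19176.5 and 27548.4 on the WT arrays. LHCB4.2 was higher by 2.05 ± 0.48, or by 1.16 without WT array 1 and 2.95 without WT array 2. LHCB4.1 differed by 0.19 ± 0.11 and passed only without WT array 2, at 0.29. The part of such shifts in tissue markers in the decrease of the 6 genes was not tested.

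By shape across the 4 arrays, 6 named genes outside the set lay closest to the average profile of the markers. Likeness was the root mean square distance between log2 signals centred on each gene's mean, so it weighs both the gap between genotypes and the gaps between replicates. AT3G05640, at a distance of 0.04, had signals of 732.4 and 710.3 on the ced1 arrays, against 5467.1 and 4476 on the WT arrays. AT5G47330, at 0.05, had signals of 410.4 and 440.9 on the ced1 arrays, against 3063.9 and 2617.5 on the WT arrays. AT4G12580, at 0.06, had signals of 100.1 and 95.1 on the ced1 arrays, against 809.9 and 655.7 on the WT arrays. All 3 lay nearer to the average profile than any marker did, as can follow from picking the smallest distances among all named tested genes. UGT73C7, a glycosyltransferase gene, AT3G04000 and ATG8H, an autophagy gene, followed at 0.13, 0.16 and 0.17. The log2 differences of the 6 genes lay between -2.83 and -2.64, a narrow range that this way of picking favours. None of the 6 is on a list used here, and both ced1 signals of AT4G12580 and of UGT73C7 lay under the filter's level.

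Genes adjacent to the markers in the TAIR10.1 gene order were examined, a choice made after the values of the markers were seen. With 2 protein-coding genes on each side there were 24 neighbours, of which 13 have a named probe set and 8 were tested. Of these 8, 4 were lower, 2 were higher and 2 did not pass, with log2 differences between -1.37 and 1.41. Over all tested probe sets, lower calls made up 19.2% and higher calls 23.2%. AT1G16850 had lower genes on both sides: AT1G16840 differed by -1.37 ± 0.14 (SE; limma adjusted p = 0.000521) and AT1G16860 by -0.96 ± 0.16 (SE; limma adjusted p = 0.00362). Beyond AT1G16860, AT1G16870 was higher by 0.59 ± 0.14. The call of AT1G16870 was lost with equal array medians, at 0.42, and when either ced1 array was left out, and that of AT1G16860 without ced1 array 2. SDH1-1, a subunit gene of mitochondrial succinate dehydrogenase that lies near AT5G66780, was lower by -1.10 ± 0.12, and AT5G50350, next to AT5G50360, by -0.76 ± 0.19, or by -0.55 without ced1 array 2, which did not pass. AT3G48490 near AT3G48510 was higher by 1.41 ± 0.32, a size that depends on the offset and was 1.01 with an offset of 64. Its WT signals of 42.4 and 86.4 lay under the filter's level. AT3G48490 passed the filter through its ced1 signals, so its call does not support the count of higher neighbours.

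Across the whole array, 3161 probe sets were higher and 2626 lower in ced1, so that 54.6% of the called probe sets were higher. With equal array medians, a scaling that shifted the median over the whole table by -0.17, this share was 39.2%, and 2213 were higher and 3437 lower. Across probe sets, the ced1 arrays correlated with r = 0.989 and the WT arrays with r = 0.970. BODYGUARD has no probe set named here, so the mutated gene gave no check of the genotype labels.

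**Figure D4:**
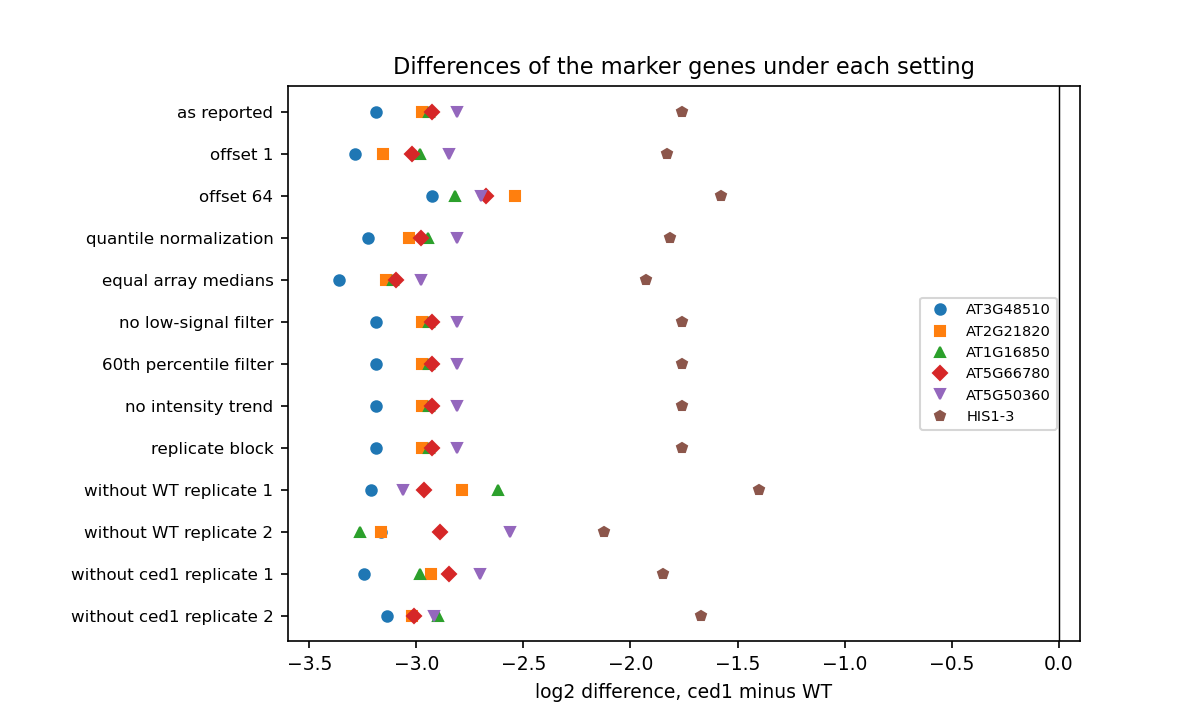
Log2 difference (ced1 minus WT) of the 6 marker genes as reported and under 12 alternative settings. All points lie left of 0; HIS1-3 lies between -2.12 and -1.40 and to the right of the other 5 genes in every setting shown.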

How the data were processed

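The authors deposited linear intensity values, 1 for each probe set. Per the submitters' processing notes they come from MAS5, which subtracts background and scales each array, while a version or scaling target is not given in the sources used here. The trimmed mean (2nd to 98th percentile) was 494.4 to 495.7 on the 4 arrays and the medians 156.3 to 187.5. The number of arrays limits the precision.

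Differences (ced1 minus WT) were fitted on log2(signal + 16) with limma 3.58.1 in R 4.3.3 (lmFit, then eBayes with trend = TRUE). Genotype was the single term, and the fit covered the 13648 probe sets whose mean log2 signal was at or above the 40th percentile. The Benjamini-Hochberg adjustment ran over this whole table, and calls were made at 0.05. The offset makes log2 differences of weak signals too small. Genes were named through the platform's probe table, where 13513 probe sets have 1 gene, 503 have several and 8730 are not listed. Of the first, 13436 matched the TAIR10.1 gene table. No coordinates are given, as the files name no build. Functions are general knowledge.

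The markers and gene lists were chosen with earlier results of these data known. The text names all markers, up to 4 tested genes per list with the largest differences, and the 6 genes most like the markers. AT4G36600 and AT1G72740 were named in addition, AT4G36600 for its low ced1 signals. Neighbouring genes were added after seeing the data. The labels name biological replicates but no separate cultures, so the p-values reflect the spread of these 4 samples, which may be partly technical. Alternatives were other offsets, scalings, filters and variance models, a replicate block and leaving out each array.

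Same-numbered arrays were checked for pairing: replicate gaps in ced1 and WT correlated with r = 0.09 across probe sets, and the labels do not say that a number marks a shared batch.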

Additional observations from a re-analysis of the deposited data

How the results depend on the processing

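The 6 markers were lower in ced1 and passed the test under all 12 alternatives. Their log2 differences ranged from -3.36 to -2.93 for AT3G48510, -3.06 to -2.56 for AT5G50360, -3.26 to -2.62 for AT1G16850, -3.10 to -2.68 for AT5G66780, -3.17 to -2.54 for AT2G21820 and -2.12 to -1.40 for HIS1-3, with a highest limma adjusted p of 0.00898, for HIS1-3 without ced1 array 2. With the replicate number as a block (replicate block), 6 markers were again lower, and no marker's call changed. In that fit 3608 probe sets were higher and 2951 lower, the latter 21.6% of those tested. AT2G21820 passed the filter through its WT signals, so its calls do not support these counts of markers. Leaving out each array in turn gave between 1200 and 4535 higher probe sets, against 3161 on all arrays, and between 1329 and 3333 lower ones, against 2626. Without ced1 array 1 these were 1313 and 1426, and without ced1 array 2 they were 1200 and 1329. In these fits the single array left in a genotype is taken to vary as the other genotype does. Low signals, such as that of AT2G21820 in ced1, cannot be told from background here.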
